A study of Saccharomyces cerevisiae with 4 samples.

Results

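The 40 genes of glycolysis, ethanol fermentation, trehalose metabolism and glycogen metabolism described here were taken from a list of gene symbols, by their place in these pathways. The rule that picks them uses no measured value, though the list was drawn up with earlier results of these data known. All 40 were found among the 6549 entries that the 4 libraries share. The libraries came from diploid budding yeast of the SK1 background, a strain that sporulates efficiently, collected 4 h after transfer into sporulation medium and treated with cycloheximide just before harvest. In *dbp1Δ::kanMX6* cells the open reading frame (ORF) of *DBP1*, which encodes an RNA helicase related to the translation initiation factor Ded1, had been replaced by the kanMX6 drug resistance cassette. Wild-type cells kept the ORF, and the study's SK1 diploid carries marker alleles of *TRP1*, *HIS3* and *LEU2* (each with hisG), of *URA3* and *LYS2*, and an *HO* gene disrupted with *LYS2*. The mutant was derived from the same background. Each genotype was measured once by ribosome profiling, which sequences the mRNA fragments protected by ribosomes (footprints), and once by mRNA-seq. The comparison was made to ask how loss of Dbp1 alters gene expression in meiotic cells. With 1 library per genotype and assay there was no replicate error, no test of significance could be made, and every difference below is a difference between those libraries.

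Glycolysis breaks glucose down to pyruvate, and in budding yeast pyruvate decarboxylase and alcohol dehydrogenase carry the pyruvate on to ethanol. Trehalose, a disaccharide, and glycogen, a branched polymer, are the reserve forms of glucose, and both are built from UDP-glucose. Yeast is made to sporulate in medium based on acetate, here with a little raffinose, a fermentable sugar. Sporulating cells store glucose reserves early in meiosis and draw on glycogen later, when the spores form. Many steps of these pathways have isozymes, and in yeast the members of a pair are often used under different carbon sources.

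Levels are given as RPKM, reads scaled by ORF length and by each library's mapped reads, and translation efficiency (TE) is the footprint RPKM of a gene divided by its mRNA RPKM. The *DBP1* entry had a footprint level of 6.9 RPKM in *dbp1Δ::kanMX6* cells, against 435.2 RPKM in wild type, and an mRNA level of 2.9 RPKM against 131.5 RPKM. The mutant library also had a lower footprint level for the adjacent *MRP51*, a mitochondrial ribosomal protein gene (5.6 RPKM, against 47.0 RPKM in wild type). The *MRP51* mRNA level was higher, 173.8 RPKM against 96.8 RPKM in wild type, so the genotypes differed in more than *DBP1*. Depths inferred from the values were 3270000 (*dbp1Δ::kanMX6*) and 4120000 (wild type) mapped footprint reads, and 4770000 and 2220000 mapped mRNA reads. The lowest member value rested on 15 inferred reads. Brackets after a ratio give its 95% interval from read counting alone, and since PCR copies of a molecule were not told apart, these intervals cover counting error only and leave out all variation between cultures and library preparations.

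Because RPKM is a share of each library, the ratios of all entries did not centre on 1. Over the entries that averaged 10 RPKM or more across the libraries, the median log2 ratio of *dbp1Δ::kanMX6* to wild type was 0.35 for footprints, 0.37 for mRNA and -0.07 for TE. A member is therefore also placed against that median entry where it matters. For 8 members (*PGI1*, *PFK2*, *TDH1*, *ENO2*, *PYK2*, *TPS3*, *ATH1* and *GLC3*) the footprint ratio was above 1 as deposited but below the median entry. The same held for the mRNA ratio of 8 members (*HXK2*, *PFK2*, *CDC19*, *PDC6*, *NTH1*, *GSY1*, *GSY2* and *GPH1*), and no TE ratio changed side in this way.

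Of the 40 genes, 39 passed the 10 RPKM minimum, and *PDC5*, a minor pyruvate decarboxylase gene, did not. The members were low for their mRNA and high for their TE in *dbp1Δ::kanMX6* cells. Their median log2 ratio was -0.23 for mRNA, 0.60 below the median entry, and 0.54 for TE, 0.60 above it. The TE ratio is the footprint ratio divided by the mRNA ratio, so the mRNA and TE medians are not independent. Footprints lay in between, with a median of 0.15 as deposited, which was 0.20 below the median entry. At the mRNA level 25 of 39 members were lower in *dbp1Δ::kanMX6* cells and 14 were higher, whereas 28.6% of all entries were lower and 71.3% higher. TE was higher for 32 of 39 members, against 44.8% of all entries.

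At least 2-fold higher footprint levels were found for 6 of 39 members (*HXK1*, *GLG2*, *GPH1*, *CDC19*, *PGM1* and *NTH1*), which at 15.4% was near the 15.1% of all entries past the same fold. Footprints were at least 2-fold lower for 2 members (*SGA1* and *TSL1*), where the share over all entries was 8.23%. After centring on the median entry, 3 members (*HXK1*, *GLG2* and *GPH1*) were past 2-fold higher and 5 (*SGA1*, *TSL1*, *HXK2*, *TDH2* and *GLK1*) past 2-fold lower, and the shares of all entries became 6.36% and 12.8%. For mRNA, 2 members (*HXK1* and *GLG2*) were at least 2-fold higher, against 16.6% of all entries. The mRNA of 7 members (*SGA1*, *ENO1*, *TDH1*, *TSL1*, *GLK1*, *ENO2* and *ADH2*) was at least 2-fold lower, which is 17.9% of the members and 4.18% of all entries. TE was at least 2-fold higher for 6 members (*TDH1*, *PDC1*, *ENO2*, *ENO1*, *TPI1* and *GPH1*), 15.4% of the members where all entries gave 3.43%. When the members whose reads are partly held in an entry shared with another ORF were left out, TE was at least 2-fold higher for 2 of 31 (*TPI1* and *GPH1*) and mRNA at least 2-fold lower for 3 of 31 (*SGA1*, *TSL1* and *ADH2*). No member had a TE 2-fold lower, a class that held 6.07% of all entries.

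**Figure D1:**
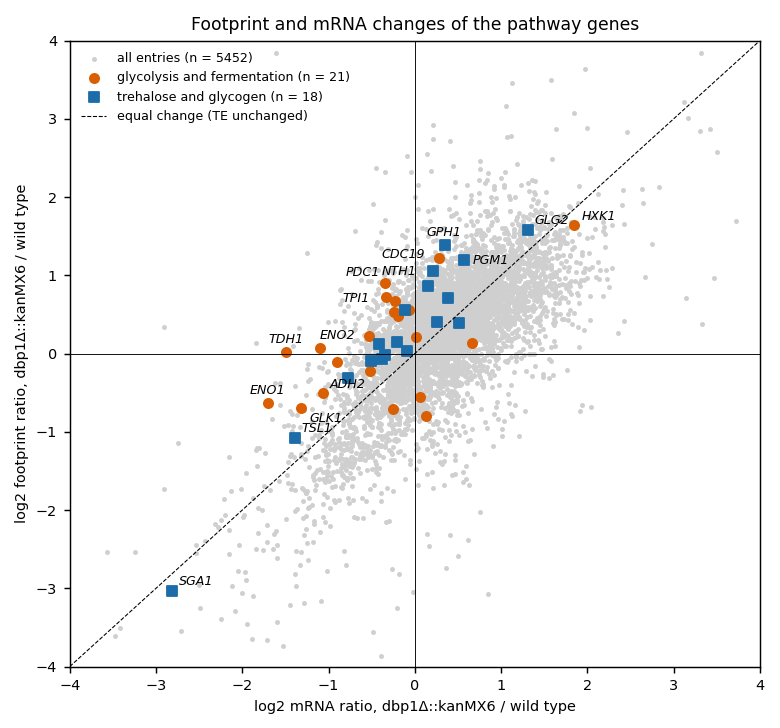
Each point is an entry, with the log2 ratio of mRNA RPKM in *dbp1Δ::kanMX6* to wild type on the x axis and that of footprint RPKM on the y axis. Grey points are all 5452 entries, orange circles the 21 glycolysis and fermentation genes, blue squares the 18 trehalose and glycogen genes, and the dashed line marks equal ratios; 31 entries lie outside the axes. Most members sit above the dashed line (32 of 39 had a higher TE in *dbp1Δ::kanMX6* cells). For mRNA, 33 of 39 lie left of the median entry, and *SGA1* lies far down the diagonal.

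Across the 39 members, the log2 ratios of footprint and mRNA went together (Pearson r = 0.80, Spearman rho = 0.69, and r = 0.71 without *SGA1*). Over all 5452 entries r was likewise 0.71. The members come from the same 4 libraries and are not independent, so these coefficients are a description. In 13 of 39 members (33.3%) the footprint level was higher and the mRNA level lower in *dbp1Δ::kanMX6* cells, a combination found in 8.71% of all entries. Measured from the median entry, 12 members (30.8%) and 13.1% of all entries had it. The reverse combination was seen for *HXK2* and *PDC6* only, 5.13% of the members and 11.1% of all entries.

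At sugar phosphorylation, the entry step, the isozymes differed in opposite directions. *HXK1* (YFR053C), a hexokinase gene known to be repressed by glucose, had a footprint level of 457.0 RPKM in *dbp1Δ::kanMX6* cells, against 146.1 RPKM in wild type. At the mRNA level it had 794.0 RPKM, against 220.3 RPKM in wild type. These were the highest ratios among the members, 3.13 for footprints (2.89 to 3.39) and 3.60 for mRNA (3.33 to 3.90), and both stayed above 2 relative to the median entry. *GLK1* (YCL040W), which encodes glucokinase, had 160.1 footprint RPKM in *dbp1Δ::kanMX6* cells and 258.4 in wild type, with 97.7 and 244.6 mRNA RPKM. Its mRNA was thus 2.50-fold lower (2.26 to 2.77) and its TE higher, at 1.64 in *dbp1Δ::kanMX6* cells, against 1.06 in wild type. *HXK2* (YGL253W), the main hexokinase gene on glucose, was low throughout, with footprint levels of 6.5 RPKM in *dbp1Δ::kanMX6* cells and 11.3 RPKM in wild type and mRNA levels of 15.1 and 13.8 RPKM. It had the lowest TE ratio of the members, 0.526, with a wide interval (0.303 to 0.911) set by 31 and 68 inferred footprint reads.

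**Figure D2:**
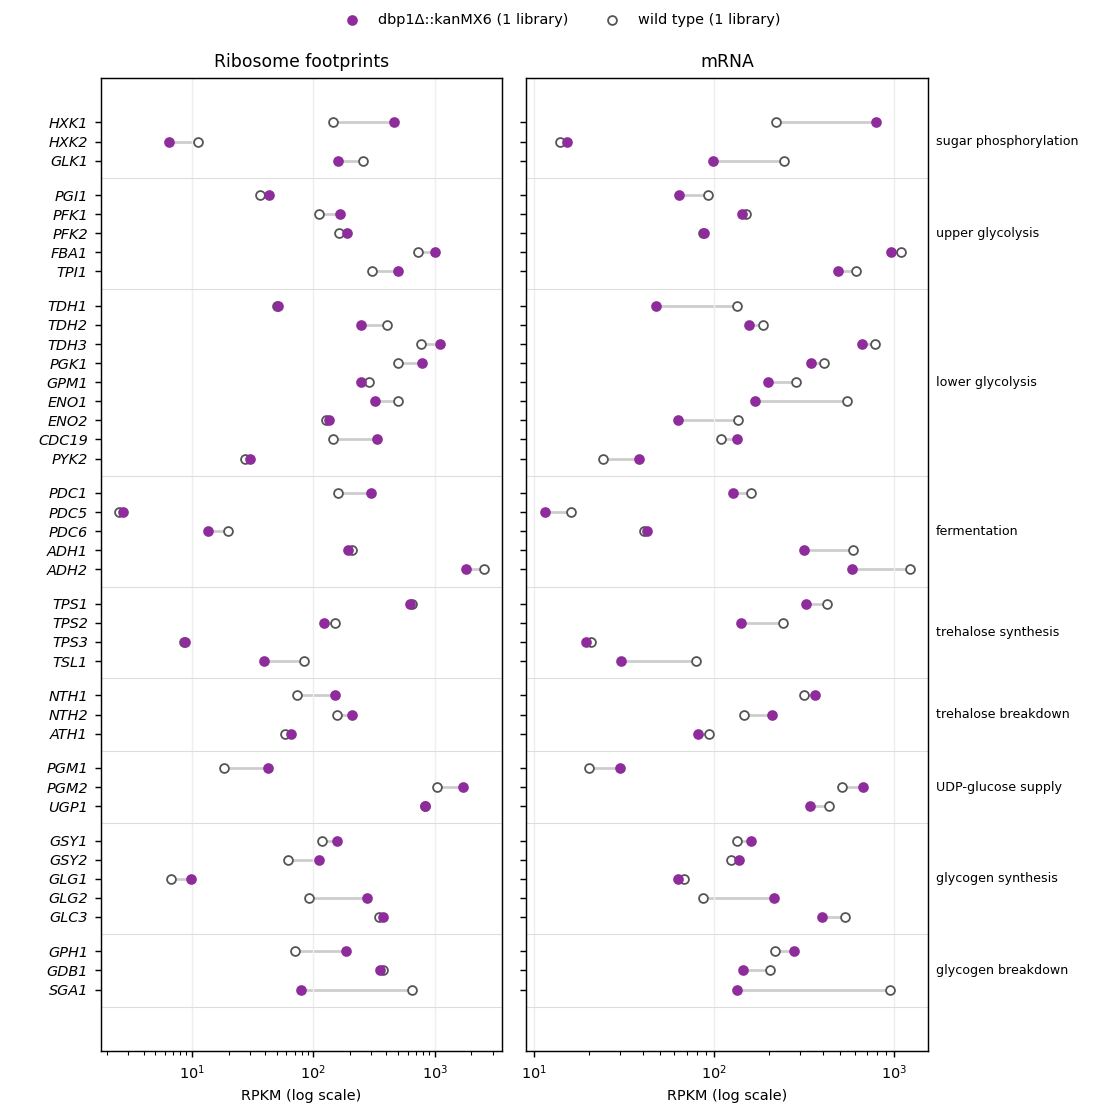
The left panel gives footprint RPKM and the right panel mRNA RPKM on logarithmic axes, 1 row per gene in order of the pathway steps, with filled points for *dbp1Δ::kanMX6* and open points for wild type, 1 library each. *HXK1* and *GLG2* stand to the right in *dbp1Δ::kanMX6* cells in both panels and *SGA1* far to the left. Of the 39 members past the 10 RPKM minimum, 13 are lower in *dbp1Δ::kanMX6* cells in the mRNA panel but not, as deposited, in the footprint panel. They are *PGI1*, *PFK1*, *FBA1*, *TPI1*, *TDH1*, *TDH3*, *PGK1*, *ENO2*, *PDC1*, *TPS3*, *ATH1*, *GLG1* and *GLC3*.

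The 5 genes of upper glycolysis, from phosphoglucose isomerase to triose phosphate isomerase, all had footprint ratios above 1 (1.16 to 1.65), as did 68.7% of all entries, and 3 of the 5 were above the median entry. Their mRNA ratios were between 0.690 and 1.01. All 5 therefore had a higher TE in *dbp1Δ::kanMX6* cells. The most marked was *TPI1* (YDR050C), triose phosphate isomerase, with 499.1 footprint RPKM in *dbp1Δ::kanMX6* cells and 301.7 in wild type. Its mRNA level was 483.1 RPKM in *dbp1Δ::kanMX6* cells and 609.8 RPKM in wild type. Its TE was 1.03, against 0.495 in wild type, a ratio of 2.09 (1.86 to 2.34). *FBA1* (YKL060C), the aldolase gene, had the highest mRNA level of any member in *dbp1Δ::kanMX6* cells, 952.0 RPKM, against 1092.9 RPKM in wild type. Its footprint level was 1009.9 RPKM, against 725.7 RPKM in wild type, so footprints were 1.39-fold higher over a slightly lower mRNA level. The subunits of phosphofructokinase, which work in a single complex, differed in size of change. *PFK1* (YGR240C) had 165.1 footprint RPKM in *dbp1Δ::kanMX6* cells and 111.9 in wild type with near-equal mRNA (141.7 and 149.0 RPKM), for a TE ratio of 1.55 (1.40 to 1.72). *PFK2* (YMR205C) had 190.2 and 163.7 footprint RPKM with 87.8 and 86.6 mRNA RPKM, for a TE ratio of 1.15 (1.02 to 1.29). *PGI1* (YBR196C), phosphoglucose isomerase, was the lowest of the step group, at 42.7 footprint RPKM in *dbp1Δ::kanMX6* cells and 36.6 in wild type. Its mRNA level was 63.3 RPKM, against 91.7 RPKM in wild type, which gave a TE ratio of 1.69 (1.35 to 2.12).

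Lower glycolysis, from glyceraldehyde-3-phosphate dehydrogenase to pyruvate kinase, had the highest median TE ratio of the step groups, 1.87 over its 9 genes. The mRNA of 7 of the 9 was lower in *dbp1Δ::kanMX6* cells, against 28.6% of all entries. The largest mRNA difference was at the enolases, which convert 2-phosphoglycerate to phosphoenolpyruvate. *ENO1* (YGR254W) had 168.1 mRNA RPKM in *dbp1Δ::kanMX6* cells, against 547.5 in wild type, 3.26-fold lower (3.01 to 3.52). Its footprint level was 321.5 RPKM, against 499.2 RPKM in wild type, 1.55-fold lower (1.46 to 1.66). Footprints thus differed less than mRNA, and TE was 1.91 in *dbp1Δ::kanMX6* cells and 0.912 in wild type. *ENO2* (YHR174W), the enolase gene favoured on glucose, had 62.8 mRNA RPKM in *dbp1Δ::kanMX6* cells, against 134.7 in wild type, yet its footprint levels, 133.8 and 127.0 RPKM, were alike within counting error. Its TE ratio was 2.26 (1.89 to 2.70).

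The 3 glyceraldehyde-3-phosphate dehydrogenase genes did not behave alike. *TDH1* (YJL052W), the minor isozyme gene, had 47.3 mRNA RPKM in *dbp1Δ::kanMX6* cells and 133.0 in wild type, 2.81-fold lower (2.36 to 3.37). Its footprint levels were 50.7 and 50.1 RPKM, a ratio of 1.01 (0.823 to 1.25). With mRNA lower and footprints level, *TDH1* had the highest TE ratio of all members, 2.85 (2.18 to 3.72). These values rest on the reads given to *TDH1* alone. The entry shared by all 3 genes, described further on, had an mRNA ratio of 0.872 and a TE ratio of 1.87. *TDH3* (YGR192C), the main isozyme gene, had 1102.6 footprint RPKM in *dbp1Δ::kanMX6* cells and 763.5 in wild type, over 657.3 and 778.3 mRNA RPKM. *TDH2* (YJR009C) had fewer footprints in *dbp1Δ::kanMX6* cells, 245.1 RPKM against 400.3 RPKM in wild type, over 155.6 and 185.0 mRNA RPKM. *TDH2* was one of few members with a lower TE in *dbp1Δ::kanMX6* cells, at a ratio of 0.728 (0.628 to 0.843), but its reads are divided with an entry that it shares with *TDH3*, described further on.

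*PGK1* (YCR012W), phosphoglycerate kinase, followed the *TDH3* pattern. It had 791.1 footprint RPKM in *dbp1Δ::kanMX6* cells and 495.1 in wild type, over 345.0 and 403.6 mRNA RPKM. *GPM1* (YKL152C), phosphoglycerate mutase, had lower footprints (246.9 RPKM, against 287.9 RPKM in wild type) and lower mRNA (199.1 against 285.3 RPKM), and its TE ratio was 1.23 (1.05 to 1.44). Pyruvate kinase, the last step of glycolysis, again split by isozyme. *CDC19* (YAL038W), its main gene, had 335.4 footprint RPKM in *dbp1Δ::kanMX6* cells and 144.3 in wild type, 2.32-fold higher (2.14 to 2.52), and 1.83-fold higher relative to the median entry. Its mRNA level was 133.1 RPKM, against 109.4 RPKM in wild type, and TE was 2.52 against 1.32. *PYK2* (YOR347C), the isozyme gene repressed by glucose, had near-equal footprints, 30.1 and 27.5 RPKM, over a higher mRNA level in *dbp1Δ::kanMX6* cells (38.2 RPKM, against 24.2 RPKM in wild type). Its TE ratio was 0.693 (0.499 to 0.964).

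In fermentation, mRNA was lower in *dbp1Δ::kanMX6* cells for 3 of the 4 genes that passed the minimum, against 28.6% of all entries. Footprints were mixed. *ADH2* (YMR303C), the alcohol dehydrogenase that oxidises ethanol and is repressed by glucose, had more footprints than any other member in both genotypes, 1792.1 RPKM in *dbp1Δ::kanMX6* cells and 2540.7 RPKM in wild type, rank 91 and rank 62 of the 6549 entries. Its mRNA level was 578.8 RPKM, against 1214.3 RPKM in wild type, 2.10-fold lower (1.99 to 2.21). *ADH1* (YOL086C), the enzyme that makes ethanol, had 315.6 mRNA RPKM in *dbp1Δ::kanMX6* cells and 589.5 in wild type, with footprints of 192.9 and 207.8 RPKM. TE was thus higher in *dbp1Δ::kanMX6* cells for both, with ratios of 1.48 for *ADH2* (1.39 to 1.57) and 1.73 for *ADH1* (1.53 to 1.96). *PDC1* (YLR044C), the main pyruvate decarboxylase gene, had 299.0 footprint RPKM in *dbp1Δ::kanMX6* cells and 159.6 in wild type, although its mRNA was lower, 126.3 against 160.4 RPKM. Its TE was 2.37 in *dbp1Δ::kanMX6* cells and 0.995 in wild type, a ratio of 2.38 (2.10 to 2.70). *PDC6* (YGR087C), a minor isozyme gene, ran the other way, with 13.5 footprint RPKM in *dbp1Δ::kanMX6* cells and 19.8 in wild type over 42.3 and 40.7 mRNA RPKM. *PDC5* (YLR134W), the member below the minimum, had 2.7 and 2.5 footprint RPKM and 11.4 and 15.9 mRNA RPKM, and at 15 and 17 inferred footprint reads no difference was detectable.

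Trehalose is made by a complex of *TPS1*, the synthase, *TPS2*, the phosphatase, and the regulatory subunits *TPS3* and *TSL1*. Their mRNA was lower in *dbp1Δ::kanMX6* cells for 4 of 4, against 28.6% of all entries, with ratios of 0.381 to 0.942. Their footprint ratios were all below the median entry. *TSL1* (YML100W) differed most. It had 39.4 footprint RPKM in *dbp1Δ::kanMX6* cells and 82.9 in wild type, 2.10-fold lower (1.88 to 2.36). The mRNA level of *TSL1* was 30.1 RPKM, against 79.1 RPKM in wild type, 2.63-fold lower (2.33 to 2.98). *TPS3* (YMR261C), the alternative subunit, was low and near-equal, with 8.8 and 8.6 footprint RPKM and 19.4 and 20.6 mRNA RPKM. *TPS1* (YBR126C) was the most abundant of the complex, with 620.2 footprint RPKM in *dbp1Δ::kanMX6* cells and 648.4 in wild type over 322.6 and 420.4 mRNA RPKM. *TPS2* (YDR074W) had 122.2 and 151.6 footprint RPKM over 140.8 and 240.0 mRNA RPKM. The TE ratios of the 4 genes, 1.09 to 1.37, were closer to each other than their mRNA ratios.

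The trehalases, which split trehalose to glucose, had footprint ratios above 1 for 3 of 3, as did 68.7% of all entries, and 2 of the 3 were above the median entry. *NTH1* (YDR001C), the main neutral trehalase gene, had 151.8 footprint RPKM in *dbp1Δ::kanMX6* cells and 73.1 in wild type, 2.08-fold higher (1.89 to 2.29) and 1.63-fold higher relative to the median entry. Its mRNA levels were closer, 363.1 and 314.8 RPKM, and its TE was low in both genotypes, 0.418 in *dbp1Δ::kanMX6* cells and 0.232 in wild type. *NTH2* (YBR001C), its paralog, had higher footprints (206.2 RPKM, against 157.1 RPKM in wild type) and higher mRNA (209.5 against 146.4 RPKM), so its TE ratio was 0.917 (0.823 to 1.02). *ATH1* (YPR026W), the acid trehalase gene, had 65.2 and 58.7 footprint RPKM over 80.9 and 93.5 mRNA RPKM.

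UDP-glucose, the donor for both reserves, is made by phosphoglucomutase and *UGP1*. *PGM2* (YMR105C), the main phosphoglucomutase gene, was among the most translated members, with 1700.9 footprint RPKM in *dbp1Δ::kanMX6* cells and 1035.9 in wild type over 668.0 and 509.6 mRNA RPKM. *PGM1* (YKL127W), the minor gene, had 42.4 footprint RPKM in *dbp1Δ::kanMX6* cells and 18.5 in wild type, 2.29-fold higher (1.84 to 2.86) and 1.80-fold higher relative to the median entry, over 29.9 and 20.2 mRNA RPKM. *UGP1* (YKL035W), UDP-glucose pyrophosphorylase, had near-equal footprints, 825.2 and 832.4 RPKM, over a lower mRNA level in *dbp1Δ::kanMX6* cells, 338.3 against 431.4 RPKM. For these 3 genes TE ratios ranged from 1.25 to 1.55.

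Glycogen synthesis needs glycogenin to prime the chain, glycogen synthase to extend it and the branching enzyme. Footprint ratios were above 1 for all 5 genes, as for 68.7% of all entries, and 4 of 5 stayed above the median entry. *GLG2* (YJL137C), a glycogenin gene, had 275.4 footprint RPKM in *dbp1Δ::kanMX6* cells and 91.7 in wild type, 3.00-fold higher (2.68 to 3.37). Its mRNA level was 214.2 RPKM, against 86.5 RPKM in wild type, 2.48-fold higher (2.15 to 2.88). *GLG2* and *HXK1* were the only members at least 2-fold higher in both assays, and relative to the median entry the mRNA of *GLG2* was 1.92-fold higher. *GLG1* (YKR058W), the other glycogenin gene, had far fewer footprints, 9.9 RPKM in *dbp1Δ::kanMX6* cells and 6.7 in wild type, over 63.0 and 68.2 mRNA RPKM. Its TE, 0.157 in *dbp1Δ::kanMX6* cells and 0.0982 in wild type, was the lowest of the 39 members in each genotype. The glycogen synthase genes shared a direction for footprints. *GSY2* (YLR258W), the main synthase gene, had 112.2 RPKM in *dbp1Δ::kanMX6* cells and 61.6 in wild type over mRNA levels of 136.8 and 123.1 RPKM. *GSY1* (YFR015C) had 155.5 and 117.6 footprint RPKM over 159.8 and 133.6 mRNA RPKM. Of the pair *GSY2* had the larger TE ratio, 1.64 (1.42 to 1.90), against 1.11 (0.975 to 1.25) for *GSY1*. *GLC3* (YEL011W), the branching enzyme, had 375.0 and 345.6 footprint RPKM over 395.3 and 528.1 mRNA RPKM, for a TE ratio of 1.45 (1.35 to 1.56).

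Glycogen breakdown held the member that differed most and one that went the other way. *GPH1* (YPR160W), glycogen phosphorylase, had 184.0 footprint RPKM in *dbp1Δ::kanMX6* cells and 70.5 in wild type, 2.61-fold higher (2.40 to 2.84). Its mRNA was 276.9 RPKM, against 217.2 RPKM in wild type, a ratio just under that of the median entry. Its TE was 0.664 in *dbp1Δ::kanMX6* cells and 0.325 in wild type, a ratio of 2.05 (1.84 to 2.28). *GDB1* (YPR184W), the debranching enzyme, had 351.1 and 375.1 footprint RPKM over 143.9 and 204.3 mRNA RPKM, for a TE ratio of 1.33 (1.24 to 1.42).

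*SGA1* (YIL099W), a glucoamylase that digests glycogen in sporulating cells, had 79.5 footprint RPKM in *dbp1Δ::kanMX6* cells, against 649.8 RPKM in wild type. The *SGA1* mRNA level was 134.1 RPKM, against 944.3 RPKM in wild type. Footprints were 8.17-fold lower (7.40 to 9.04) and mRNA 7.04-fold lower (6.57 to 7.55), and *SGA1* stood at position 50 of 5453 entries for footprints and 15 of 5551 for mRNA, counted from the most reduced. Its TE was 0.593 in *dbp1Δ::kanMX6* cells and 0.688 in wild type, so footprints and mRNA differed by similar folds. The marker genes of middle meiosis were lower as well. All 14 listed had lower footprints in *dbp1Δ::kanMX6* cells (ratios of 0.0216 to 0.792), 10 of them at least 2-fold, where all entries gave 8.23%. *NDT80*, the activator of middle meiotic genes, had 447.0 footprint RPKM against 1007.6 RPKM in wild type. The mRNA of the 14 was lower too, at least 2-fold for 7 (4.18% of all entries). The median TE ratio of these markers was 0.593, and their range, 0.0653 to 1.51, included the 0.862 of *SGA1*. TE was lower for 12 of the 14, against 55.2% of all entries. The 3 late sporulation markers found were also at least 2-fold lower for footprints. The 9 early meiotic markers had ratios of 1.07 to 2.03, with a median of 1.34, near the 1.27 of all entries. Of these 9 markers, 6 were above the median entry and 3 below it. The part of meiotic stage in the *SGA1* difference was not tested. In bulk cultures, fewer cells at a stage and less RNA per cell cannot be told apart.

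Between the genotypes the order of the genes by TE was largely kept (Pearson r of log2 TE = 0.84, Spearman rho = 0.81 over 39 members, a description over shared libraries). The counting interval of the TE ratio lay above 1 for 30 of 39 members and below 1 for 6 (*HXK1*, *HXK2*, *TDH2*, *PYK2*, *PDC6* and *SGA1*). These intervals are narrower for abundant genes. The same count was not made over all entries, so it sets no contrast with them. The medians by pathway were 0.68 on the log2 scale for the 21 glycolysis and fermentation genes and 0.35 for the 18 trehalose and glycogen genes. The difference between these pathways was not tested. Members were more abundant than most entries, with a median footprint level of 190.2 RPKM in *dbp1Δ::kanMX6* cells and 151.6 in wild type, where the medians of all entries were 48.3 and 41.2 RPKM. Among the entries averaging 50 RPKM or more, the median log2 TE ratio was -0.04, and 29 of 33 members lay above that median. Such a minimum does not match the other entries to the members in abundance, so the part of abundance was not tested.

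**Figure D3:**
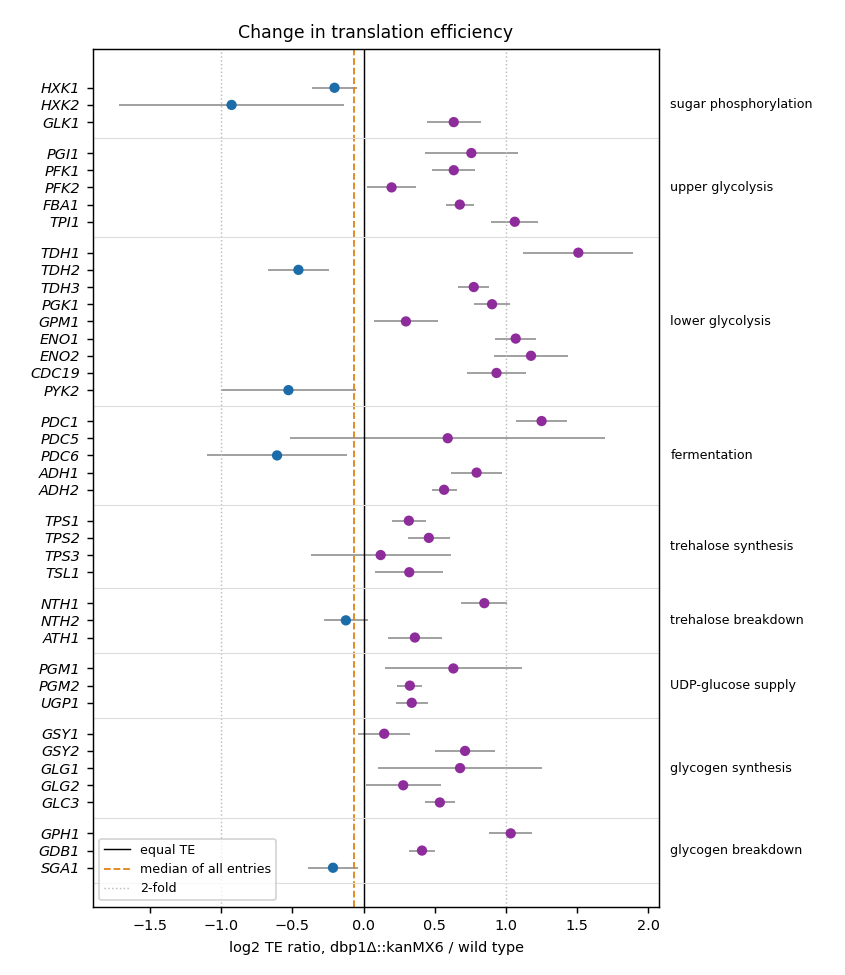
The x axis gives the log2 ratio of TE in *dbp1Δ::kanMX6* to wild type for each of the 40 genes (rows), purple where TE was higher and blue where it was lower in *dbp1Δ::kanMX6* cells, with bars for the 95% interval from read counting, a dashed orange line at the median of all entries (-0.07) and dotted lines at 2-fold. Most points lie right of the dashed line, *TDH1*, *PDC1*, *ENO2*, *ENO1*, *TPI1* and *GPH1* pass 2-fold, and *HXK2* is the lowest.

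The isozyme make-up of a step does not depend on how the libraries are scaled, since it compares genes within a library. The genes *HXK1*, *HXK2* and *GLK1* differed most. *HXK1* took 73.3% of their summed footprint RPKM in *dbp1Δ::kanMX6* cells and 35.1% in wild type, while *GLK1* took 25.7% and 62.1%. At the mRNA level *HXK1* took 87.6% in *dbp1Δ::kanMX6* cells and 46.0% in wild type. Among these genes the leading one was thus *HXK1* in *dbp1Δ::kanMX6* cells and *GLK1* in wild type. *EMI2*, a close relative of *GLK1*, is not counted here. It had more footprints than either, 481.0 RPKM in *dbp1Δ::kanMX6* cells and 2614.1 RPKM in wild type. Among the glycogenins, *GLG2* took 77.3% of mRNA in *dbp1Δ::kanMX6* cells and 55.9% in wild type, but nearly all footprints in both (96.5% and 93.2%). *TPS3* took 39.2% of the mRNA of the trehalose synthase regulatory subunits in *dbp1Δ::kanMX6* cells and 20.7% in wild type. *CDC19* took 91.8% of pyruvate kinase footprints in *dbp1Δ::kanMX6* cells and 84.0% in wild type, and *NTH1* 42.4% and 31.8% of those of the neutral trehalases. *TDH2* took 17.5% of glyceraldehyde-3-phosphate dehydrogenase footprints in *dbp1Δ::kanMX6* cells and 33.0% in wild type, a share that rests on the uncertain division of reads with *TDH3*. *ENO1* took 70.6% of enolase footprints in *dbp1Δ::kanMX6* cells and 79.7% in wild type. The entry that *ENO1* shares with *ENO2* had 690.0 and 625.9 footprint RPKM. Shared entries, such as this, are not in any of the shares given here. The shares of *ADH2* and *PGM2* were closer: *ADH2* took 90.3% of the footprints of its pair in *dbp1Δ::kanMX6* cells and 92.4% in wild type, and *PGM2* took 97.6% and 98.2%.

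**Figure D4:**
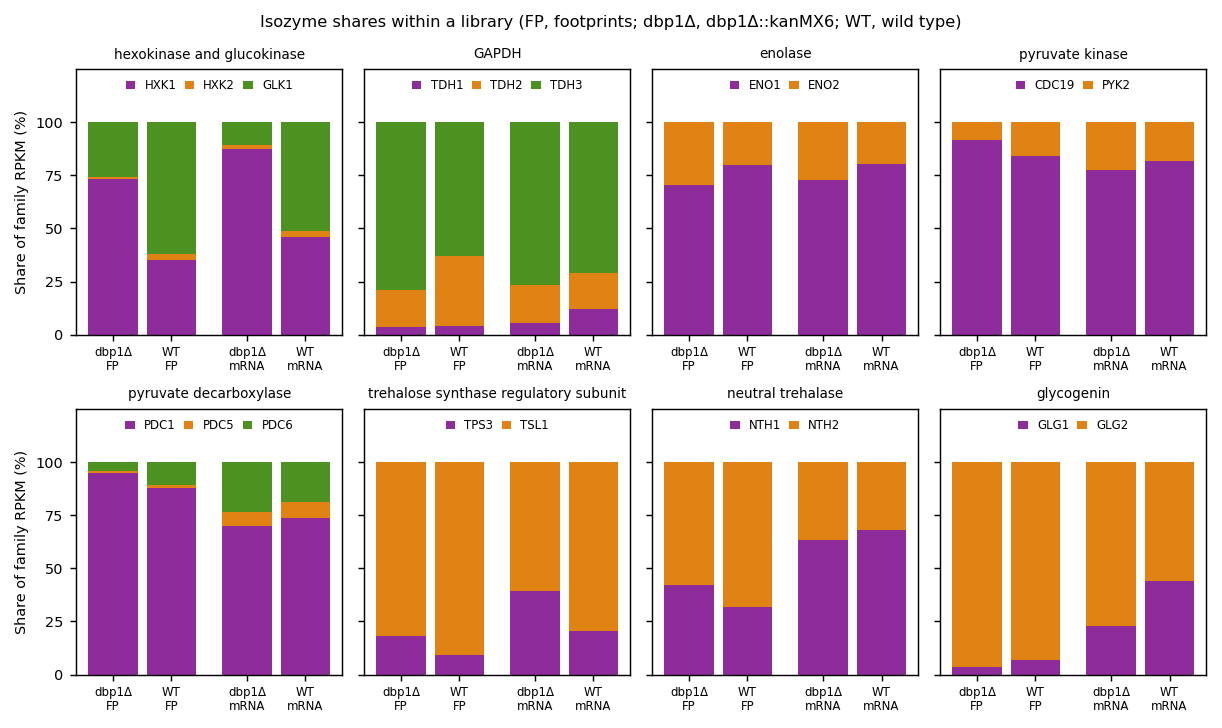
Stacked bars show the percent of each isozyme family's summed RPKM taken by each gene, for 8 families in the 4 libraries. Among *HXK1*, *HXK2* and *GLK1* (*EMI2* is not counted), *HXK1* has 73.3% of footprints in *dbp1Δ::kanMX6* cells and 35.1% in wild type. *GLG2* takes nearly all glycogenin footprints in both genotypes (96.5% and 93.2%).

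Some reads could not be given to a single isozyme, and the files hold 6 further entries that name a member together with another ORF. The entry shared by *ENO1* and *ENO2* had 245.5 mRNA RPKM in *dbp1Δ::kanMX6* cells and 877.7 in wild type, with 690.0 and 625.9 footprint RPKM, so its mRNA was lower in *dbp1Δ::kanMX6* cells and its footprints were not. The entry shared by *PDC1* and *PDC5* had 426.7 footprint RPKM in *dbp1Δ::kanMX6* cells and 169.2 in wild type over 156.0 and 192.8 mRNA RPKM, as *PDC1* did. The entry shared by *TDH2* and *TDH3* had 1576.8 footprint RPKM in *dbp1Δ::kanMX6* cells and 820.1 in wild type, a ratio of 1.92, where *TDH2* alone gave 0.612. The direction for *TDH2* therefore depends on which of these reads are its own, and the division of reads among these isozymes is uncertain. The entry shared by all 3 *TDH* genes had 926.3 and 568.6 footprint RPKM over 636.3 and 729.9 mRNA RPKM. *HXK1* is also named with YFR052C-A and *GLK1* with YCL042W, and those entries went the way of the genes. The *HXK1* entry had 577.1 footprint RPKM in *dbp1Δ::kanMX6* cells and 234.8 in wild type, and the *GLK1* entry 137.7 and 574.0. For the *GLK1* entry the TE ratio was 1.10, smaller than the 1.55 of *GLK1* alone.

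Summed over all 40 genes, the pathway took 2.05% of mapped footprint reads in *dbp1Δ::kanMX6* cells and 1.85% in wild type, and 1.45% and 1.79% of mapped mRNA reads. The sums by step showed where these shares lay. For lower glycolysis the footprint sum was 1.19-fold higher in *dbp1Δ::kanMX6* cells while its mRNA sum was 1.45-fold lower. For fermentation both were lower, footprints 1.22-fold and mRNA 1.82-fold. For glycogen breakdown both were lower as well, by 1.33-fold and 1.89-fold, but without *SGA1* the footprint sum was 1.10-fold higher and the mRNA sum 1.08-fold lower. Reads of the shared entries are not in these sums.

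Of 28 further genes of these pathways (regulators, minor isozymes and gluconeogenesis), 27 were found and 25 passed the minimum. Their TE ratio was above 1 for 9 of 25 (36%, against 44.8% of all entries) and above the median entry for 11, with none at least 2-fold higher and only *PIG2* at least 2-fold lower. Footprints were at least 2-fold higher for 4 (*MIG1*, *MSN4*, *PFK27* and *PHO85*) and lower for 3 (*EMI2*, *PIG2* and *TYE7*), 16% and 12% of the list where all entries gave 15.1% and 8.23%. The mRNA was at least 2-fold higher for *MSN4*, *PFK27* and *PCL10*, and lower for *EMI2* and *PIG2*, 12% and 8% of the list where all entries gave 16.6% and 4.18%. These shares were near those of all entries. *EMI2*, a close relative of *GLK1* required for early meiotic induction, had 481.0 footprint RPKM in *dbp1Δ::kanMX6* cells, against 2614.1 in wild type, and 500.1 mRNA RPKM against 2050.2. *PIG2*, a putative targeting subunit of the phosphatase Glc7 that acts on glycogen synthase, had 15.5 footprint RPKM in *dbp1Δ::kanMX6* cells and 141.7 in wild type. *MSN4*, a stress-response transcription factor, had 175.5 mRNA RPKM, against 52.6 RPKM in wild type. *PCK1*, which drives the opposite pathway of gluconeogenesis, was near-equal, with 1776.7 and 1842.9 footprint RPKM over 2593.5 and 2574.3 mRNA RPKM.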

How the data were processed

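The deposited files give 1 RPKM value per entry for each of 4 libraries (footprint and mRNA, *dbp1Δ::kanMX6* and wild type). Per the study's methods, the authors aligned reads to SK1, and RPKM is their read count of an ORF over its length and the library's mapped reads. The submitters' processing notes name CASAVA, bcl2fastq 2.17 and Bowtie2; how reads matching several ORFs were assigned is not given in the sources used here. Values were deposited to 1 decimal.

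Entries were matched to the listed symbols without use of their values, but the members and gene lists were chosen with earlier results of these data known. The members given in full were those at the extremes of each pathway step, those past 2-fold and all isozymes; in practice all 40 are given. Of the 28 other pathway genes, those past 2-fold were counted and the few with values were picked after these were seen. Ratios are plain RPKM ratios without a pseudocount, for entries averaging 10 RPKM or more across the 4 libraries. No p-value was computed. Mapped reads were inferred from the step size of low values, using ORF lengths of the RefSeq R64 annotation (5771 entries and all 40 members matched), which is not the SK1 build. With these depths 73.0% to 79.5% of values from ORFs under 900 bp and under 20 RPKM came out as whole reads, against 15.2% to 19.4% by chance, so the depths are approximate. Intervals are exact binomial for ratios of reads and log-normal for TE. The depth step was tested on simulated data. Alternatives were another pseudocount, filter, scaling, fold and set of entries. Python 3.11.15, NumPy 2.4.6, SciPy 1.17.1, pandas 2.3.3 and matplotlib 3.10.9 were used.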

Additional observations from a re-analysis of the deposited data

How the results depend on the processing

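Footprint directions depended on scaling. Centred on the median entry, the median log2 footprint ratio of the members turned to -0.20 and the mRNA median was -0.60. Footprints were then past 2-fold higher for 3 members and lower for 5, where all entries gave 6.36% and 12.8%. For mRNA 1 member was past 2-fold higher and 9 past 2-fold lower, where all entries gave 7.1% and 8.43%. Trimmed-mean scaling gave medians of -0.20 and -0.59 and the same counts, where all entries gave 6.25%, 12.9%, 7.24% and 8.34%. At a 1.5-fold threshold, footprints were higher for 11 members and lower for 6, and TE higher for 18 and lower for 2, where all entries gave 36.3%, 14.0%, 10.7% and 18.0%. Further settings were chosen after seeing the data. Without the members that also have a shared entry, the mRNA median was -0.11, mRNA was at least 2-fold higher for 1 and lower for 3 of 31, and TE at least 2-fold higher for 2 of 31 (*TPI1* and *GPH1*). Without *SGA1*, 1 member was at least 2-fold lower for footprints. Adding 1 RPKM, a minimum of 50 RPKM, no minimum, scaling without the members and adding the shared entries left these counts within 1.5 times of those reported and every median on its side of 0. The TE of 32 of 39 members was higher in *dbp1Δ::kanMX6* cells under each scaling tried. No paired analysis was possible because each group holds 1 library, and for the same reason no replicate could be left out. The inferred depths limit *PDC5*, *HXK2* and *GLG1* most.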
